A study of Mus musculus with 10 samples.

Results

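The 10 genes described here encode SOX transcription factors (Sox2, Sox4, Sox5, Sox6, Sox8, Sox9, Sox10, Sox11, Sox12 and Sox21). They were looked up by name in 2 deposited lists of m6A peaks that together name 8516 genes. They are part of the SOX family, of which 5 further genes held WT peaks but no KO peak and are counted separately below. Peaks were mapped by m6A-seq, in which RNA fragments are immunoprecipitated (IP) with an antibody to N6-methyladenosine (m6A), and stretches enriched over the input RNA are listed as peaks. Polyadenylated RNA labelled as mouse cortex and hippocampus came from wild-type (WT) mice, with 3 IP and 3 input libraries, and from mice with a Nestin-Cre driven knockout (KO) of Mettl14, with 2 IP and 2 input libraries, all at postnatal day 5. METTL14 pairs with the methyltransferase METTL3 to place most m6A of mRNA. Nestin-Cre acts in the neural lineage and spares microglia and most vessel cells. The labels do not say which Mettl14 exons were removed, whether the WT mice carried Cre or a floxed allele, or whether libraries came from separate animals. They also name a culture medium, so that dissected tissue and cultured cells cannot be told apart.

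There was 1 peak list per genotype, so no value below has a replicate error and no test between genotypes was possible. Intervals cover counting error only, and library depth is unknown here. Mettl14 held 1 WT peak, which was not overlapped, and no KO peak, and a peak does not measure expression. Of the marker genes examined, 3 of 4 of neurons (all but Snap25) and 4 of 4 of astrocytes held a WT peak, as did Pdgfra, Cspg4 and Mbp of the oligodendrocyte lineage and Emx1, Emx2 and Neurod6 of the telencephalon. Markers of cells outside the lineage also held WT peaks, in 3 of 3 microglial and 3 of 3 endothelial genes. Of their WT peaks, a KO peak overlapped 1 of 5 in the microglial and 2 of 5 in the endothelial genes. The counts were 5 of 7 in the neuronal, 2 of 6 in the astrocyte and 0 of 12 in the oligodendrocyte lineage genes. In the 8 telencephalon genes examined it was 6 of 17, and over all 15009 WT peaks 12.9%. How far the cells that these markers stand for bear on the SOX peaks was not tested. The lists hold no expression level, so less methylation of a transcript and less of the transcript cannot be told apart, nor can fewer cells of a type and less RNA per cell.

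SOX proteins bind DNA through a high-mobility-group (HMG) box that fits the minor groove and bends the helix, and they usually act with partner factors. They are sorted by sequence into groups. In the developing cortex, group B1 (Sox2) keeps progenitors undifferentiated, group B2 (Sox21) counteracts it, and group C (Sox4, Sox11, Sox12) acts in newborn neurons. Group D (Sox5, Sox6) helps specify neuron types, and group E (Sox8, Sox9, Sox10) drives the formation of astrocytes and oligodendrocytes. The B and C genes named here are intronless, so that their gene span equals their transcript.

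The transcript start of Sox2 was the only place among the 10 genes where both lists began a peak at the same 5′ border, which was also the annotated start of the gene. The 30 bases that follow it lay inside a peak of both genotypes. They are printed with the first 20 bases of the most 5′ WT peak of Sox11, which is 91 bases wide and has no KO peak over it. Capitals mark a match to DRACH, the sequence context of m6A, searched on the sense strand as AAC or GAC preceded by A, G or T and followed by A, C or T. Both come from RefSeq on GRCm38.p6, whose table of promoters held 8 of the 10 genes.
Sox2, transcript bases 1 to 30, chr3:34649995-34650024, plus strand: ggatggttgtctatTAACTtgttcaaaaaa
Sox11, transcript bases 31 to 50, chr12:27342669-27342688, minus strand: cgcctgggagtgcttggggt
The Sox2 stretch held 1 match, the letters TAACT starting at base 15 of the transcript, and the Sox11 stretch held none. Each stretch is only part of its peak, so the matches of the whole peaks are not known here. Over 32851 promoter entries, 37.5% held a match in bases 1 to 30 and 24.1% in bases 31 to 50, so windows with and without a match are both common. The antibody also binds m6Am next to the cap of mRNA, and the lists do not separate the 2 marks.

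The SOX genes carried 28 peaks in the WT list and 10 in the KO list. A WT peak counts as retained if it shared 1 or more exonic bases with a same-strand KO peak, and as lost if it did not. Of the 28 WT peaks, 7 were retained, which is 25.0% (Wilson 95% interval 12.7 to 43.4), beside 12.9% of all 15009 WT peaks. The 7 lay in 5 genes: 3 in Sox4 and 1 each in Sox2, Sox5, Sox9 and Sox12. The count was 4 (1 each in Sox2, Sox4, Sox9 and Sox12) when 50% of the WT peak had to be shared, beside 6.83% of all WT peaks, and 3 when 50% of both peaks had to be, beside 6.26%. Sox6, Sox8, Sox10, Sox11 and Sox21 retained none. A retained peak was thus found in 5 of 10 genes, beside 20.6% of all 7717 genes with a WT peak. Most of the 10 genes carried several peaks, and the background share rises with their number, from 10.5% of genes with 1 WT peak to 22.7% with 2, 33.8% with 3, 43.3% with 4 to 5 and 56.3% with 6 or more. Any KO peak was listed for 6 of 10 genes, beside 27.0% of the genes with a WT peak.

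Seen from the KO list, 8 of its 10 SOX peaks lay over a WT peak (80.0%, interval 49.0 to 94.3), beside 57.1% of all 3673 KO peaks. The exceptions were 1 KO peak in Sox11 and 1 in Sox9. Summed exonic length of the peaks was 9887 bases in WT and 2192 bases in KO, so the KO length was 22.2% of the WT length, beside 16.6% over all genes. Bases in peaks of both lists numbered 1830, which is 83.5% of the KO bases and 18.5% of the WT bases of the SOX genes, beside 58.7% and 9.75% over all genes.

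**Figure D1:**
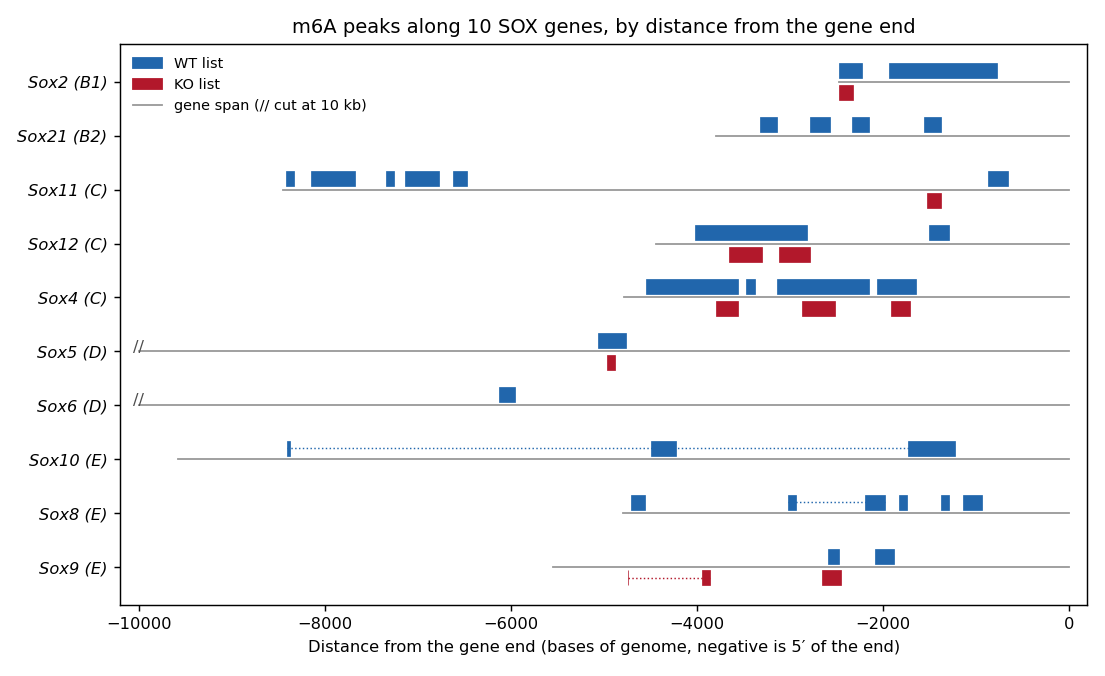
Peaks of the WT list (blue, above each line) and of the KO list (red, below) along 10 SOX genes, by distance in bases from the gene end, with the group of each gene in brackets; dotted lines join exonic blocks of a peak and grey lines are gene spans, with those of Sox5 and Sox6 cut at 10 kb. Of the 10 KO peaks, 8 sit under a WT peak, and Sox6, Sox8, Sox10 and Sox21 have none.

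Other genes of the family added no retained peak. The mouse SOX family was taken as 20 genes, of which 15 held a WT peak. The other 5 with a WT peak were Sox1 (3 peaks), Sox3 (2), Sox7 (1), Sox13 (1) and Sox18 (1), with 8 WT peaks in all and no KO peak. Sox14, Sox15, Sox17, Sox30 and Sry had no peak in either list. Over the whole family, 7 of 36 WT peaks (19.4%) and 5 of 15 genes (33.3%) were retained, nearer to the background than the shares of the 10 genes. All SOX genes with a KO peak were among the 10.

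Sox2 maintains neural stem cells and, elsewhere, pluripotency. Its gene (chromosome 3, 34649995 to 34652461, plus strand) held 2 WT peaks that together covered 1398 bases, or 56.7% of the gene. The first began at the gene start and ran for 239 bases to 34650233, and the KO peak shared that start and ended 90 bases earlier, at 34650143. The other, from 34650530 to 34651688, was 1159 bases wide, wider than 99.1% of all WT peaks, and had no KO peak over it. In Sox2 the narrow peak at the start was thus listed in both genotypes and the wide peak over the middle of the transcript in WT alone. A peak at the gene start was rare, with 1.91% of WT and 1.85% of KO peaks having their 5′ border there. Of those, 26.8% of the WT peaks were retained and 63.2% of the KO peaks lay over a WT peak. The long noncoding RNA gene Sox2ot, in whose introns Sox2 lies, carried a peak of its own in both lists.

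The strength of a peak is given by the authors' p-value (which of p or q is not stated), here as the share of the list with a larger p-value. The WT peak at the Sox2 start was stronger than 75.1% of WT peaks (listed value 1e-98), and the wide peak than 92.8% (1e-260). The KO peak ranked lower in its own list, above 18.0% of KO peaks (1.1e-09). Ranks in lists of unequal length do not measure a change.

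Sox21, the B2 gene, which promotes neuronal differentiation against the B1 factors, held 4 WT peaks of 180 to 210 bases and no KO peak. They lay on chromosome 14 between 118234609 and 118236552, minus strand, and together covered 751 bases or 19.8% of the gene. The strongest, from 118235805 to 118236014, was above 75.5% of WT peaks, while the other 3 were above 5.56 to 12.9%. The most 5′ of these lay opposite a WT peak of the plus-strand gene LOC105245869, from 118236352 to 118236562, with the same listed p-value of 2.4e-08. Reads of a gene and of its antisense partner may not have been told apart there, since none of the sources used here says whether peaks were called by strand. Over the whole WT list, 289 peaks lay over a WT peak of the other strand, and 28 of these had its p-value.

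The group C genes held the most peaks, 12 in WT and 6 in KO, over 5279 and 1651 bases. They took unlike courses. Sox4, which with Sox11 switches on neuronal genes in postmitotic cells, was the most densely covered after Sox2, with 2483 bases in WT peaks, or 51.9% of the gene (chromosome 13, 28948919 to 28953699, minus strand). By bases in peaks it ranked 82 among the 7717 genes of the WT list. Of its 4 WT peaks, 3 were retained, and its 3 KO peaks lay wholly within them.

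Sox4 kept the same order of peaks along the transcript in both lists, but with shorter stretches. From 5′ to 3′, the WT peak from 28952474 to 28953460 (987 bases) held a KO peak of 240 bases that ended at its 3′ border. The next retained WT peak, from 28951071 to 28952056 (986 bases), held a KO peak of 359 bases, 269 bases inside its 5′ border and 358 inside its 3′ border. The last, from 28950563 to 28950981 (419 bases), held a KO peak of 210 bases. The KO peaks thus lay at the 3′ border of the first WT peak and in the middle part of the other pair. The lost peak was narrow, with 91 bases, and weak, above 7.70% of WT peaks, and lay 88 bases from the nearest KO peak. In the KO list, the middle and last peaks were above 92.1% and 89.0% of all KO peaks, and the first above 45.4%.

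Sox12, a weaker activator of the same group, resembled Sox4 in its 5′ part. Its WT peak from 152396428 to 152397627 on chromosome 2 (minus strand, 1200 bases) was the widest of the SOX genes, wider than 99.3% of all WT peaks, and its p-value was listed as 0. It held 2 KO peaks of 360 and 331 bases, the more 3′ of which reached 30 bases past its 3′ border. That KO peak was the strongest of the SOX genes, above 96.0% of KO peaks (listed value 1e-193). The other WT peak, of 211 bases from 152394900 to 152395110, had no KO peak within 1287 bases. KO bases made up 49.0% of WT bases in Sox12, against 32.6% in Sox4 and 10.9% in Sox11.

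Sox11, which is abundant in newborn neurons, held 6 WT peaks, the most of the 10 genes, and retained none. Of the 83 genes with exactly 6 WT peaks, 44 retained none. The gene (chromosome 12, 27334268 to 27342718, minus strand) has a long 3′ part, and 5 of its peaks lay in the 5′ part of the transcript, with midpoints 75 to 1903 bases from the gene start. The sixth, from 27334927 to 27335137, had its midpoint 764 bases from the gene end. The 5602 bases between these and the sixth held no WT peak. The strongest, from 27341040 to 27341400 (361 bases), had its p-value listed as 0, as 764 WT peaks did. The single KO peak of Sox11, from 27335646 to 27335796 (151 bases), lay within the stretch that had no WT peak, 508 bases from the sixth WT peak. It was above 79.0% of KO peaks, so Sox11 had a KO peak of its own, though none over a WT peak.

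**Figure D2:**
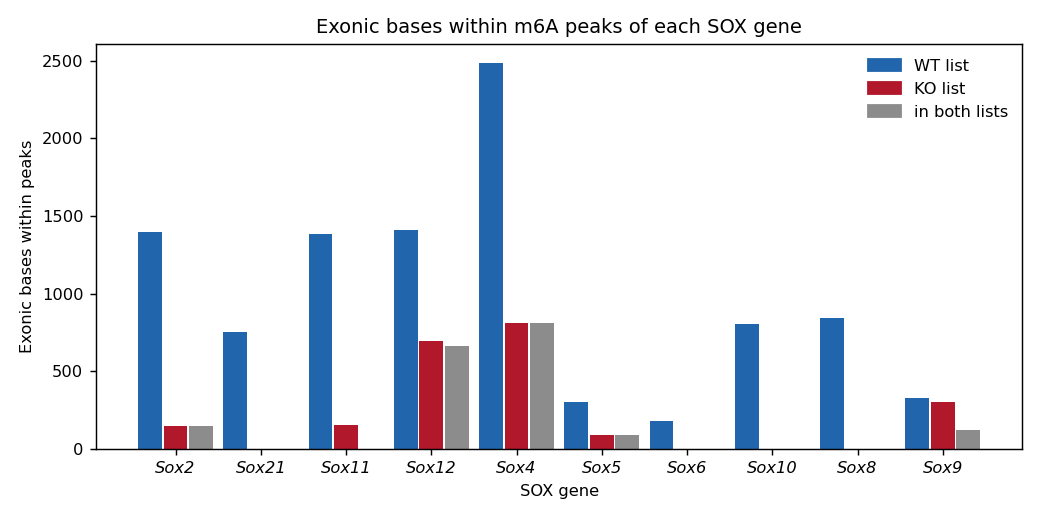
Exonic bases within peaks of the WT list (blue), of the KO list (red) and of both (grey) for each of the 10 SOX genes, 1 list per genotype and no error bars. Sox4 has the most bases in each list (2483 and 809), and in Sox9 the WT and KO lengths are close (329 and 301) although only 120 bases are shared.

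Both group D genes are very long (953863 and 569905 bases) and held their only peak in the last part of the gene. These factors lack a transactivation domain of their own and act with other SOX proteins. Sox5, which controls the fate of deep-layer projection neurons, held a WT peak of 300 bases on chromosome 6 from 143833185 to 143833484, minus strand, with its midpoint 4909 bases from the gene end. A KO peak of 91 bases, from 143833304 to 143833394, lay within it. Sox6, which acts in cortical interneurons and in oligodendrocyte precursors, held a WT peak of 180 bases on chromosome 7 from 115476824 to 115477003, 6041 bases from the gene end, and no KO peak. The retained Sox5 peak was the stronger and wider of this pair, above 80.8% of WT peaks against 32.0%.

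The group E genes held 8 WT peaks, of which only 1, in Sox9, was retained. Sox9 starts gliogenesis and marks astrocytes. It held 2 WT peaks on chromosome 11, plus strand, of 120 bases (112785163 to 112785282) and of 209 bases (112785670 to 112785878). A KO peak of 210 bases, from 112785103 to 112785312, covered the first whole and reached 60 bases further 5′ and 30 bases further 3′. It was the only retained peak of the SOX genes whose KO counterpart was wider than the WT peak. It was also the weaker of the Sox9 pair in WT, above 19.7% of WT peaks, while the lost peak was above 69.0%. A further KO peak lay in the 5′ part of the gene, with a block of 90 bases from 112783809 to 112783898 joined to a block of 1 base at 112783015, and no WT peak within 1264 bases. KO length was therefore 91.5% of WT length in Sox9, with 120 shared bases.

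Sox8 and Sox10, both of which act in the oligodendrocyte lineage, had no KO peak. Sox8 held 5 WT peaks on chromosome 17 between 25566822 and 25570596, minus strand, that together covered 844 bases. They ranged from 91 to 300 bases, and the widest joined blocks of 210 and 90 bases. Sox10, which drives myelin genes, held a single WT peak of 806 bases on chromosome 15 that joined 3 blocks of 507, 269 and 30 bases between 79156135 and 79163318, minus strand. It was wider than 96.8% of WT peaks but only of middling strength, above 39.5%. Of all WT peaks 600 to 899 bases wide, 35.8% were retained.

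Across the 28 WT peaks, the retained ones were mostly wide and strong. Retained peaks had a median of 419 bases (120 to 1200) and lost ones of 181 bases (91 to 1159), beside medians of 359 and 181 bases over all WT peaks. Of the 4 SOX peaks of 900 bases or more, 3 were retained, and 57.7% of all such WT peaks were (interval 52.2 to 63.0). In the narrower classes the SOX counts were 0 of 1 at 600 to 899 bases, 2 of 5 at 300 to 599, 1 of 6 at 200 to 299, 0 of 6 at 121 to 199 and 1 of 6 at 120 or less. The shares of all WT peaks in these classes, in the same order, were 35.8%, 22.5%, 12.7%, 6.23% and 3.08%. Wider peaks were thus retained more often in the whole list, and 5 of the 7 retained SOX peaks were at least 300 bases wide. By strength, 5 of 7 SOX peaks were retained among the strongest 20% of the WT list, beside 30.8% of all peaks in that class. From the next strongest 20% to the weakest, the SOX counts were 1 of 6, 0 of 3, 0 of 3 and 1 of 9, beside 13.9%, 9.48%, 6.41% and 3.52%. The retained peak of the weakest class was that of Sox9. The exceptions among strong peaks were the wide Sox2 peak and the Sox11 peak listed at 0. Width and strength moved with retention, and their part in it was not tested.

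**Figure D3:**
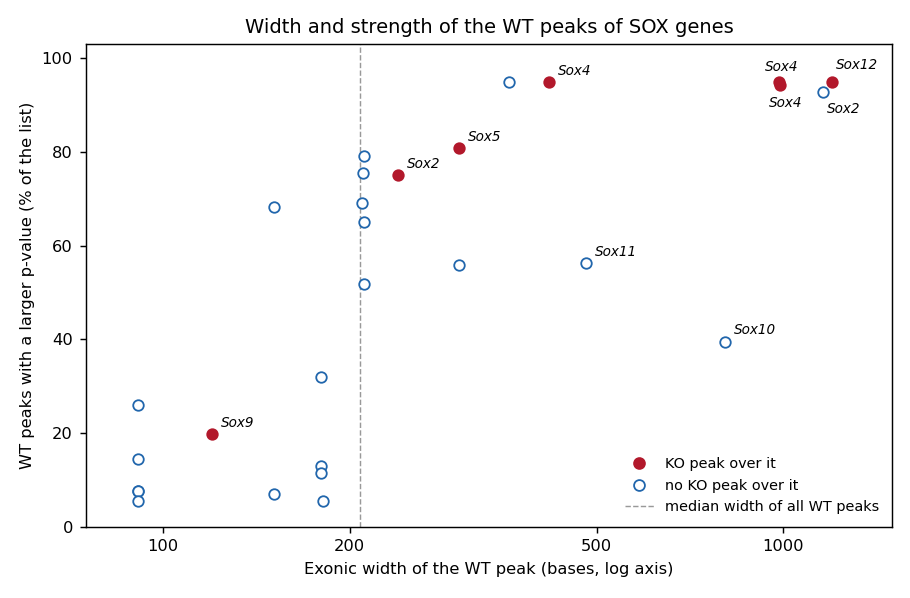
Exonic width (bases, log axis) of each of the 28 WT peaks of SOX genes against the share of the WT list with a larger p-value, with filled red points for peaks under a KO peak and open blue points for the others; gene names mark the retained peaks and those over 450 bases. The 3 retained peaks of 900 bases or more sit at the upper right beside the lost Sox2 peak, and the retained Sox9 peak sits at the lower left.

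The median WT width of the SOX peaks was 210 bases, beside 208 over the list, while the median KO width was 210 beside 151. Widths of single-block peaks lay within 1 base of a multiple of 30 in 91.0% of the WT and 96.0% of the KO list, so borders that differ by 30 bases differ by 1 step of this grid. Most SOX peaks were on a single exonic block, 26 of 28 in WT and 9 of 10 in KO, beside 76.5% and 66.7% over the lists, and several of these genes have no intron. Only the sixth Sox11 peak in WT and no KO peak had its midpoint within 1000 bases of a gene end, where 15.9% of all WT and 16.1% of all KO peaks lay. Within 200 bases of a gene start lay 3 WT peaks (Sox2, Sox8, Sox11) and 1 KO peak (Sox2), beside 3.37% and 3.33% of the lists.

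Partner and regulator genes of SOX factors, a list of 24, held a WT peak in 20 and a retained peak in 8, beside 20.6% of all genes with a WT peak. Of their 54 peaks, 16 were retained (29.6%, beside 12.9% of all WT peaks), 6 of them in Nfix. The POU genes, whose products bind DNA side by side with SOX proteins, had retained peaks in Pou3f1 (1 of 2), Pou3f2 (2 of 2) and Pou3f3 (3 of 5) but not in Pou3f4 (0 of 2). Nfix retained 6 of 7, and Nfib, Ep300 and Crebbp each 1 of 4. Zeb2 retained 1 of 2. Chd7, a chromatin remodeler that cooperates with SOX2, lost its 5 peaks.

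Genes downstream of the SOX groups were counted by cell type. Progenitor genes linked to group B1, a list of 10, held a WT peak in 7 and a retained peak in 1, beside 20.6% of all genes with a WT peak. Of their 16 peaks, 1 was retained (6.25%, beside 12.9% of all WT peaks). It lay in Nes (1 of 7), which encodes the filament protein nestin and whose enhancer SOX2 binds. Notch1, Mycn and Gli3 retained none of 2 each. Neuronal genes linked to group C, a list of 9, held a WT peak in 6 and a retained peak in 5, with 8 of 18 peaks retained (44.4%). Among them Tubb3, a target of SOX4 and SOX11 that encodes neuronal tubulin, retained 1 of 3, Elavl3 2 of 5, Map2 and Ncam1 2 of 4 each, and Stmn1 1 of 1, while the single peak of Tead2 was lost. Glial genes linked to group E, a list of 17, held a WT peak in 10 and a retained peak in 1, with 1 of 25 peaks retained (4.0%), that of the glutamate transporter gene Slc1a3 (1 of 2). Cspg4 retained none of 7, Pdgfra and Ptprz1 none of 3 each, and the myelin gene Mbp none of 2. Of these glial genes, 6 had a KO peak, including Mog and Erbb3, which had no WT peak.

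Other families of transcription factors gave values on both sides of the SOX genes. Nuclear factor I genes retained 7 of 16 WT peaks (43.8%), 6 in Nfix and 1 in Nfib. Both genes are also in the partner list above, so these 7 peaks count in both shares. Neurogenic bHLH and E protein genes retained 5 of 22 (22.7%), and forkhead genes 1 of 42 (2.38%). The forkhead list holds every gene of that name pattern, whereas the SOX share of 25.0% covers 10 of 20 family genes. Over all 20 SOX family genes, 7 of 36 WT peaks (19.4%) were retained. The intervals of the SOX, bHLH and nuclear factor I shares overlapped, and differences between families were not tested.

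**Figure D4:**
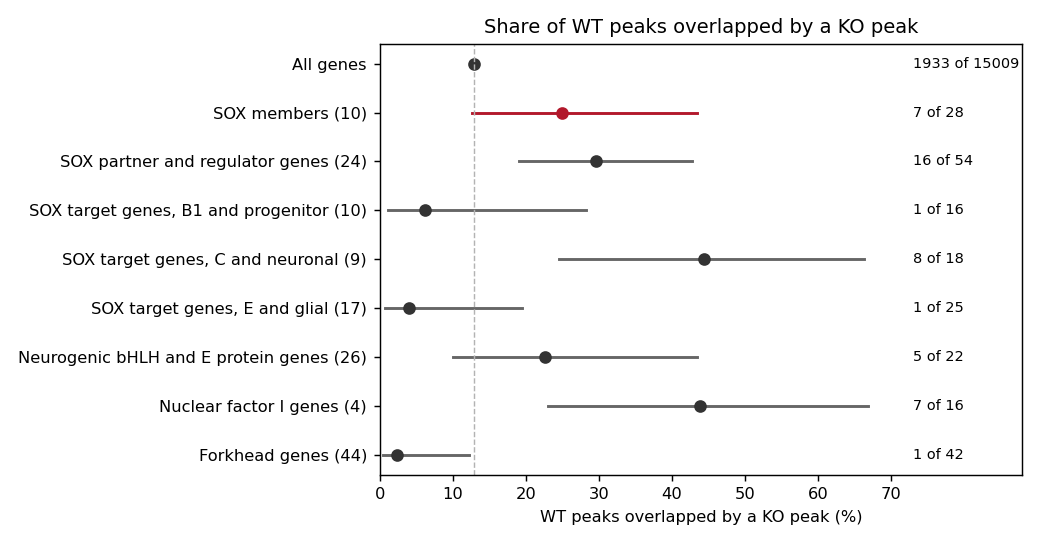
Share of WT peaks overlapped by a KO peak (%, point) with its Wilson 95% interval (line) for all genes, the 10 SOX genes (red) and 7 other gene lists, with the number of genes of each list in brackets and the counts at the right; the dashed line is the share over all genes, 12.9%. The SOX interval runs from 12.7 to 43.4 and the forkhead interval from 0.422 to 12.3. The forkhead list is a whole name family, whereas the SOX point covers 10 of 20 family genes. The share over all 20 SOX genes, 19.4%, is not drawn. Intervals treat peaks as independent, though several can lie in the same gene, and no list was tested against the share over all genes. The lists share genes, such as Nfix and Nfib in the partner and nuclear factor I lists, so their shares are not independent.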

How the data were processed

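Libraries were grouped by genotype and IP or input from their titles. The authors deposited 1 peak list per genotype, with position, strand, gene name, exonic blocks and a score. Every score lay between 0 and 0.00015, so the deposited score was read as a p-value or q-value. STAR and GRCm38 are named without versions, per the submitters' processing notes. Neither the peak caller and its thresholds nor the way libraries were combined is stated in the sources used here. Values per library were not used here, so there is no replicate error, and low expression, low depth or fewer libraries can each leave a peak unlisted.

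Same-strand entries sharing exonic bases within a list were joined (WT from 15091 to 15009, KO from 3733 to 3673), with no change in the SOX genes. Gene spans came from RefSeq (GRCm38.p6), which held all 10 genes, and 38 of 38 SOX peaks lay inside their gene. Positions count from 1. Distances to gene ends are in genomic bases, from the midpoint of the peak. Shares carry Wilson 95% intervals (scipy 1.17.1, Python 3.11.15), and overlap code was tested on simulated data. The SOX genes and the other gene lists were chosen with earlier results of these data known, so no test was made on them. The genes named from each partner and downstream list are those with a retained peak and the 4 that hold the most WT peaks (ties by exonic length), and the other genes named were chosen after their values were seen. Some genes of the lists are not reported here by name. Alternatives varied the overlap asked for, strand, merging, list length and the windows at gene ends.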

Additional observations from a re-analysis of the deposited data

How the results depend on the processing

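No paired analysis was possible because there is 1 pooled list per genotype, which also kept single replicates from being left out. The 7 retained SOX peaks numbered 4 when the overlap had to reach 50% of the WT peak, 3 when the overlap had to reach 50% of both peaks, and 3 among the stronger 50% in each list. Among the stronger 50%, 3 of 16 is 18.8%, beside 14.2% of all WT peaks kept there. The 8 KO peaks over a WT peak numbered 3 of 10 with 50% of both shared, beside 25.6% of all KO peaks. With the stronger 50% they numbered 4 of 6, beside 61.9% of all KO peaks kept. The 5 genes with a retained peak numbered 3 with 50% of both shared (Sox2, Sox4, Sox9), 2 with the stronger 50% (Sox4, Sox12), and 3 with as many of the strongest WT peaks as there are KO peaks (Sox4, Sox5, Sox12). Sox4 was thus the only gene with a retained peak under each alternative tried. That shortening left 8 WT peaks over 5623 bases with a median of 702 bases, of which 5 were retained (62.5%, beside 28.6% of all peaks of the shortened list), and the stronger 50% left 16 WT and 6 KO peaks. Within 500 bases of a gene end lay 0 WT peaks (7.21% of all WT peaks did), and within 5000 bases 22 of 28 WT and 10 of 10 KO peaks (56.3% and 48.5% of all), and 5 of the 10 genes are shorter than that window. The same 5 genes had a retained peak with either strand, whole spans, unmerged entries, a gap of 100 bases (8 peaks retained, the narrow Sox4 peak added) and, in settings added after seeing the data, the whole SOX family and no KO p-values held by 50 or more peaks.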
